A study of Ginkgo biloba with 9 samples.

Results

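A set of 143 gene models of Ginkgo biloba, out of 43834 in the deposited table, was on in green autumn leaves and nearly silent in yellow leaves. The members were chosen by a fixed rule on normalized counts, which are read counts divided by the DESeq2 median-of-ratios size factor of the library. A member was below a lower limit of 27 normalized counts in each of the 3 yellow libraries, and at or above an upper limit of 5 times that value in each of the 3 green libraries. The rule therefore fixed a level at least 5-fold lower in yellow than in green leaves, and the yellow-to-green values below are given as a description without a test. The turning-stage libraries took no part in the choice, apart from their share in the size factors. They were the only libraries whose levels the choice of members did not set.

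Ginkgo biloba is a deciduous tree of the gymnosperms, and its leaf messenger RNA was sequenced to follow senescence and colour change over 1 autumn. Green leaves of the mature stage date from September 12, leaves of the turning stage from October 26 and yellow leaves of the senescence stage from November 8, with 3 libraries per stage, numbered 1 to 3. All leaves came from 3 healthy adult trees grown outdoors, and no treatment or genotype separates the groups. Each stage was sampled on a single date, so stage and date cannot be told apart. The intervals between the dates were 44 and 13 days.

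Leaf senescence is the ordered last phase of a leaf's life, in which chloroplasts are dismantled, chlorophyll is broken down and nitrogen and other nutrients are moved back into the perennial parts of the plant. Yellow colour appears as chlorophyll is lost and carotenoids remain visible. In flowering plants this phase is known to be accompanied by the shutdown of many genes that serve photosynthesis and growth, alongside the induction of genes for breakdown and transport. The deposited table lists gene models by identifier only, and no gene names were used here, so the 143 models cannot be ordered by function. Markers of leaf cell types were not analysed here. In whole leaves, fewer cells of a type and less RNA per cell cannot be told apart.

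Library totals ran from 23766331 to 32319325 counts. Size factors averaged 1.30 ± 0.19 in green, 1.16 ± 0.15 in turning and 0.69 ± 0.05 in yellow libraries (SD, n = 3 each). The upper limit therefore corresponded to 148 to 201 reads in single green libraries, and the lower limit of 27 to 17.6 to 20.04 reads in single yellow libraries. The p-values below rest on the spread among libraries of a stage, and the labels leave unsaid which tree a library came from.

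In green leaves the members lay low among the models that were on and were not dominant. A model with a higher green level needs a larger fall to meet the yellow limit, so the rule itself favours low green levels. Their median normalized count was 242 in green library 1, 243 in green library 2 and 180 in green library 3. The mean over the green libraries ran from 143 to 2184 across members, with a median of 221 and quartiles of 183 and 348. All 12224 models that reached the upper limit in every green library had a median of 691. The median member lay at the 9.72 percentile of that larger set, 16 of 143 members lay above its median, and 0 of 143 were among the 1000 most abundant models of green leaves. The members made up 1.17% of the models that were on in green leaves. Of the 143 members, 2 carried the identifier prefix that differs from Gb_, or 1.40%, against 3.53% of all models on in green leaves.

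In yellow leaves the residual signal was small but seldom absent. The median normalized count of the members was 12.1, 13.2 and 10.7 in yellow libraries 1, 2 and 3. A count of at least 1 in every yellow library was recorded for 120 of 143 members, so the set is better described as nearly silent than as switched off. Another 23 members had 0 counts in at least 1 yellow library, and 3 of these had 0 counts in all of them. The median member had 27 reads over the 3 yellow libraries together. The mean level was 17.2-fold lower in yellow than in green leaves for the median member, with members at 0 set to a floor of 3 counts over the 3 libraries, and 6.42-fold lower for the member that differed least. For the 3 members without a count in yellow leaves, the yellow level was at least 179-fold to at least 479-fold lower than the green level, depending on the member. Intervals and floors cover counting error only.

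Together the members held a small part of the leaf transcriptome at every stage. Their summed normalized count was 52907, 61881 and 35807 in green libraries 1 to 3, then 12550, 13865 and 8640 in the turning libraries, and 1780, 1920 and 1714 in the yellow libraries. As a share of all counts, they held 0.234% ± 0.058 at the green stage, 0.0475% ± 0.012 at the turning stage and 0.00505% ± 0.00036 at the yellow stage (SD, n = 3 each). The green and yellow ends of this series follow from the rule. The turning values do not, and the sums of the 3 turning libraries lay between those of the other stages without overlap.

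**Figure D1:**
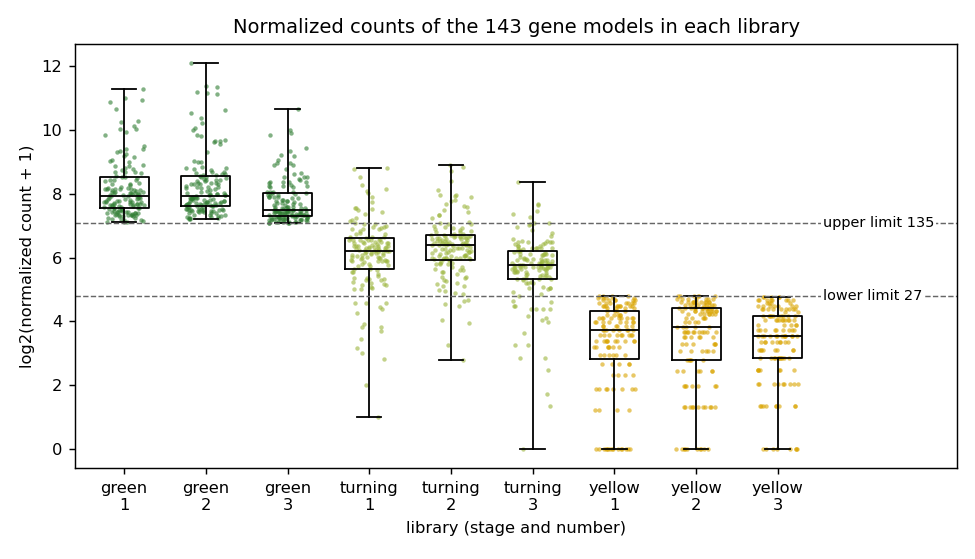
Normalized counts of the 143 models (log2 of the normalized count plus 1) in each library, ordered by stage and number. Points are models, boxes give median and quartiles, whiskers reach the lowest and highest model, and dashed lines mark the upper and lower limits that chose the models. The turning libraries, which the rule did not use, had medians of 72.1, 82.5 and 53.1, between the limits.

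At the turning stage most members had left the green range without reaching the yellow one. The median member stood at 72.1, 82.5 and 53.1 normalized counts in turning libraries 1, 2 and 3. Between the limits in every turning library were 92 members, 64.3% of the set. At or above the upper limit in every turning library were 4 members, and below the lower limit in every turning library were 5 members. The other 42 members crossed a limit between turning libraries. By comparison, 90.9% of all models on in green leaves were still at or above the upper limit in every turning library, 3.39% lay between the limits and 0.0573% were below the lower limit. The members are part of that larger set and lie low in its range of green levels, which by itself brings them nearer to the limits.

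The limits were also applied to libraries left out of the choice. A model that meets both limits there as well is a member by definition, so that count is 143 each time. The percents therefore give the members as a part of each wider set. When members were chosen on the libraries numbered 1 and 2 alone, 316 models met the limits. Of these, 181 also met the green limit in green library 3 and 269 met the yellow limit in yellow library 3, and 143 met both, or 45.3%. Choosing without the libraries numbered 1 gave 183 models, of which 78.1% met both limits in the libraries left out. Without the libraries numbered 2 there were 186 models, and 76.9% met both. The direction was nearly always the same in the libraries left out. These models had been chosen for this difference in other libraries of the same stages. The like shares over all models are not given, so the counts are a description. Yellow lay below green for 182 of 183 models in number 1, for 186 of 186 in number 2 and for 314 of 316 in number 3, and a difference of at least 5-fold was seen for 176, 179 and 283 of them. The green limit was missed by 42.7% of the models in green library 3, against 7.10% and 5.38% in green libraries 1 and 2, so the size of the set was limited mainly by green library 3.

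Turning was compared with green leaves to see how much of the fall came in the first interval. Across all 23042 models tested, 12.3% were called lower in turning leaves and 11.8% higher, where a call is an adjusted p below 0.05 (edgeR, quasi-likelihood, adjusted after Benjamini and Hochberg). Among the members, 119 of 143 were called lower and 0 were called higher. The median log2 fold change of turning over green was -1.63 for the members, with quartiles of -2.29 and -1.30, against -0.02 for all tested models. No member was called higher by DESeq2 or limma-voom either, and 0 had an unadjusted p below 0.05 in that direction. The green libraries of this contrast were also those that the rule required to be high, so the count is tied in part to the choice. The filter on low counts was passed by all 143 members, which is set by their green level. Every turning library lay below every green library for 130 members, as it did for 24.8% of all tested models. With the replicate number as a block, 94.4% of the members were called lower, against 19.3% of all models. Leaving out green library 1, 2 or 3 reduced the count to 82, 79 and 110. Without turning library 1, 2 or 3 it was 94, 101 and 84. The like shares of all tested models are not given for these smaller fits.

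Yellow was compared with turning leaves for the second, shorter interval. In this comparison 21.0% of all tested models were called lower and 20.5% higher in yellow leaves, and 132 of the 143 members were (edgeR adjusted p below 0.05), while 0 members were called higher. The median log2 fold change of yellow over turning was -2.48 for the members, with quartiles of -3.21 and -1.99, and -0.05 for all tested models. Every yellow library lay below every turning library for 133 members, against 26.3% of all tested models. A fitted rise was seen for 1 member, with a log2 fold change of 0.25 that was not called. No member was called higher by DESeq2 or limma-voom, and 0 reached an unadjusted p below 0.05 in that direction. Here the yellow libraries were those that the rule required to be low.

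A stepwise fall was the usual course. Both intervals were called lower for 108 members, 75.5% of the set, against 6.84% of all tested models. With the replicate block it was 129 members, against 10.9% of all tested models. The lowest count with libraries left out was 71, without green library 2, where the share of all tested models is not given. Their median log2 fold changes were -1.63 for turning over green and -2.38 for yellow over turning. The class had median normalized counts of 212 at the green, 69.1 at the turning and 13.8 at the yellow stage. In 133 of 143 members the order green above turning above yellow held within each library number, as it did for 21.5% of all tested models, and the rule had fixed green above yellow for every member. For 114 members the fitted fall of the second interval was larger on the log2 scale than that of the first.

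Calls in a single interval were made in the main fit for shares of the members near those of all tested models. With the replicate block both shares lay below those of all tested models. These classes are described without reading their size. The first interval only was called for 11 members, or 7.69%, against 5.49% of all tested models, and for 6 members with the replicate block, against 8.37%. Their median normalized counts were 588 at the green, 21.4 at the turning and 6.51 at the yellow stage. Their median log2 fold change was -4.94 for turning over green and -1.68 for yellow over turning. The missing second call does not show that these models stayed level. The median standard error of their turning-over-green log2 fold change was 0.87, against 0.31 in the class called in both intervals. That error belongs to the first interval, where these models were called, and does not bear on the missing second call. The standard error of the second interval is not given for the class. The second interval only was called for 24 members, or 16.8%, against 14.2% of all tested models, and for 8 members with the replicate block, against 15.1%. Their medians were 250 at the green, 119 at the turning and 11.9 at the yellow stage. The median log2 fold changes were -1.14 for turning over green and -3.71 for yellow over turning. For turning over green, where the call was missing, the median standard error was 0.54. No member lacked a call in both intervals, with or without the block. The rule had fixed a level at least 5-fold lower in yellow leaves, which makes such a call likely, so nothing is read from this.

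**Figure D2:**
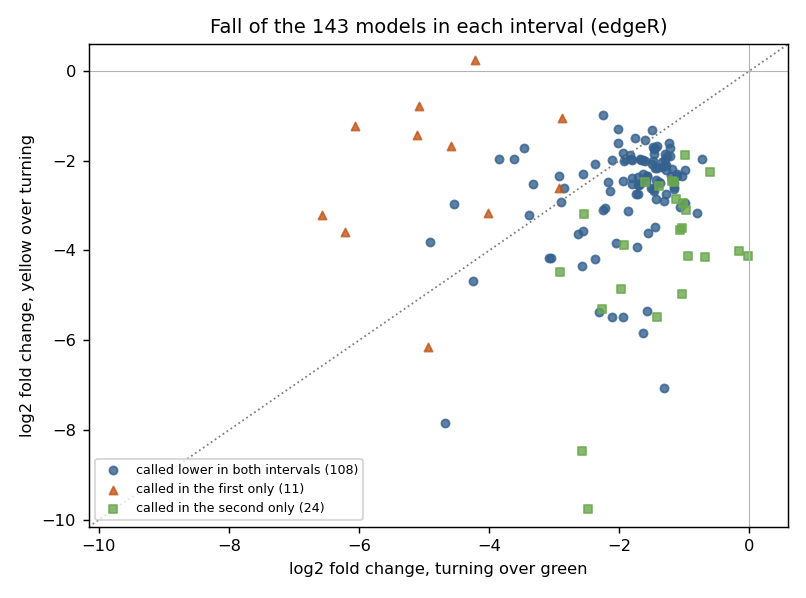
Fitted log2 fold change of turning over green (horizontal) and of yellow over turning (vertical) for the 143 models, with 1 point per model and symbols for the intervals in which edgeR called it lower. Points below the dotted line of equality, 114 of 143, had the larger fall in the second interval, and the like count of other models is not given.

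The level at the turning stage was also set against the log2 midpoint of the other stages, halfway from green to yellow. The rule had set the green and yellow levels that make up this midpoint, so the counts of members are tied in part to the choice. Of all tested models, 1.56% were called above and 1.08% below that midpoint (edgeR adjusted p below 0.05). Among the members, 7 of 143 were called above it. Called below it were 0 members by edgeR, 6 at an unadjusted p below 0.05, 3 by DESeq2 and 1 by limma-voom. With the replicate block the counts were 20 above and 4 below, against 4.97% and 4.77% of all models. The count above fell to 2 without any 1 of the green libraries, to 1, 0 and 2 without turning library 1, 2 or 3, and to 3 and 2 without yellow library 1 or 2. For these smaller fits, and for DESeq2 and limma-voom, the shares of all tested models are not given. The median position of the members was 0.42 above the midpoint on the log2 scale, against 0.03 for all tested models. It was 0.36 for 697 other models on in green leaves and at least 5-fold lower in yellow leaves. Of these 697, 7.46% were called above the midpoint, against 4.90% of the members. With the replicate block it was 19.5%, against 14.0% of the members. Called below it were 0.717% of the 697, and 3.44% with the block.

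Expressed as a share, the members had passed 0.41 of their log2 fall at the turning stage. This is the median, with quartiles of 0.34 and 0.49, computed on log2 of the normalized count plus 1. It was 0.39, 0.39 and 0.45 within library numbers 1, 2 and 3. A share between 0.25 and 0.5 was found for 99 members. Another 30 members lay between 0.5 and 0.75, 10 lay below 0.25, and 4 lay above 0.75. The 6640 models with a fitted level at least 2-fold lower in yellow than in green leaves, members included, also had a median share of 0.41.

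Another 697 models were on in green leaves and at least 5-fold lower in mean level in yellow leaves without being members. Their median share was 0.38, with quartiles of 0.28 and 0.50. Of these, 444 or 63.7% were called lower in turning than in green leaves and 604 or 86.7% in yellow than in turning leaves. The mirror rule, on in yellow and nearly silent in green leaves, was met by 125 models. Their median share of the rise reached at the turning stage was 0.35, with quartiles of 0.22 and 0.48. A share below 0.25 was found for 6.99% of the members, 19.4% of the 697 other falling models and 30.4% of the mirror set. The differences between these sets were not tested.

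**Figure D3:**
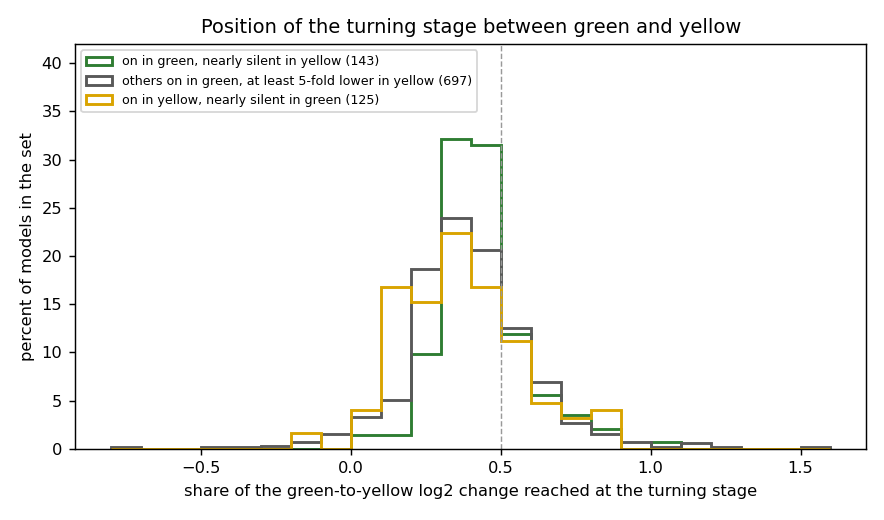
Share of the total log2 change, green to yellow, that had been reached at the turning stage, as percent of the models in each set, in bins of 0.1. The members (143, median 0.41), the other models at least 5-fold lower in yellow leaves (697, median 0.38) and the mirror set (125, median 0.35) all peak below 0.5, marked by the dashed line.

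Members with more transcript in green leaves retained a smaller part of it at the turning stage. The members were divided by mean green level at 200 and 300 normalized counts, a division chosen after the values were seen. The 51 members below 200 retained a median of 38.3% of their green level in turning leaves. The 48 members between 200 and 300 retained 33.0%, and the 44 members above 300 retained 16.8%. From the lowest to the highest class, the median level was 65.3, 74.4 and 89.0 normalized counts at the turning stage and 14.8, 14.03 and 9.49 at the yellow stage. The green level is the divisor of the retained part, so a chance high green value lowers it, and the order was not tested. The rule caps the yellow level, so it requires a larger total fall of members with a higher green level. Across the same classes, the median share of the log2 fall passed at the turning stage was 0.40, 0.40 and 0.48. The median log2 ratio of green library 3 to the mean of green libraries 1 and 2 was -0.18, -0.49 and -0.63.

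The libraries numbered 3 held lower values of the members in green and turning leaves. Green library 3 was the lowest green library for 103 of 143 members, or 72.0%, against 35.4% of all models on in green leaves. Turning library 3, which the rule did not use, was the lowest turning library for 96 members, or 67.1%, against 32.4% of all models on in green leaves. For 80 of 143 members both were the lowest of their stage. The same held for 2481 of the 12224 models on in green leaves and for 320 of the 697 other falling models. In yellow leaves library 3 was the lowest for 49 members, or 34.3%, against 33.8% of all models on in green leaves, with 7 members tied. The median log2 ratio of library 3 to the mean of libraries 1 and 2 was -0.36 in green and -0.45 in turning leaves for the members, and 0.02 and 0.02 for all models on in green leaves. The same lean was seen in the 697 other falling models, where library 3 was lowest for 64.0% in green and 57.7% in turning leaves. With library totals as the scaling, library 3 was lowest for 95 members in green and 98 in turning leaves. Under that scaling the shares of other models are not given. Across the 143 members, which share these libraries and are not independent, the library 3 ratio of green correlated with that of turning leaves (r = 0.54), and across all 12224 models on in green leaves r was 0.55. The part of library number 3 in the interval counts was not tested beyond leaving it out. Without the 3 libraries numbered 3, 106 members were called lower in turning than in green leaves. For yellow against turning leaves it was 132. The like shares of all tested models are not given for this smaller fit.

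**Figure D4:**
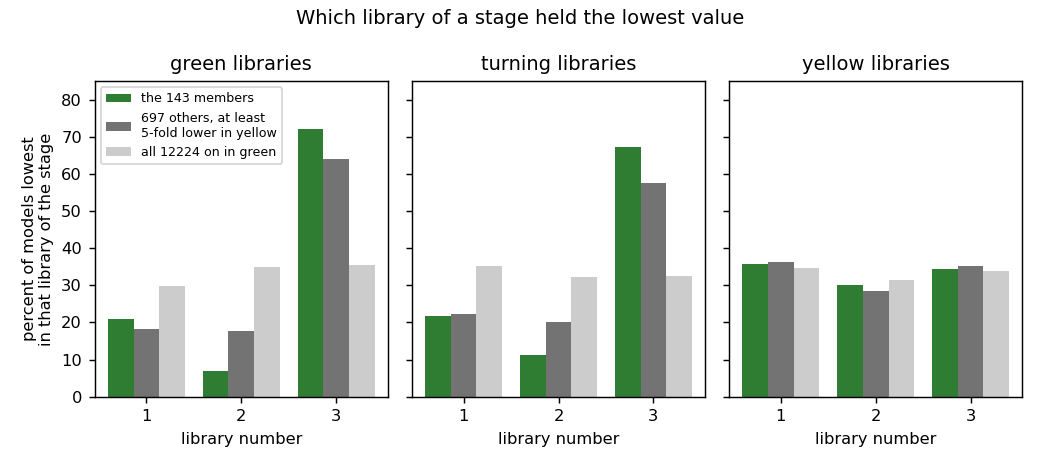
Percent of models whose lowest normalized count of a stage was in library 1, 2 or 3, for the 143 members, the 697 other models at least 5-fold lower in yellow leaves and all 12224 models on in green leaves. Library 3 was lowest for 72.0% of the members in green and 67.1% in turning leaves, and for 34.3% in yellow leaves.

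Spread among the green libraries was uneven. The median coefficient of variation over the 3 green libraries was 18.4% for the members and 12.9% for all models on in green leaves. In turning leaves it was 26.5% and 14.8%, and in yellow leaves 40.7% and 18.1%, where the members have few counts. A ratio of at least 4 between the highest and lowest green library was found for 12 members. They made up 8.39% of the set, against 1.20% of all models on in green leaves and 3.59% of those 697 models. In 10 of these 12 the lowest was green library 3, and in 9 turning library 3 was the lowest turning library. Their mean green levels ran from 588 to 2184, which the limit on each green library partly sets. Their median share of the fall at the turning stage was 0.48, against 0.40 for the other 131 members.

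The member with the highest mean level in green leaves was Gb_41630. It had 2036, 4354 and 163 normalized counts in green libraries 1, 2 and 3, 23.02, 37.4 and 8.47 in the turning libraries, and 0, 2.94 and 4.61 in the yellow libraries. The green values spanned 26.8-fold, with library 3 nearest to the turning values, and the stages did not overlap. Turning leaves averaged 22.97 ± 14.5 and green leaves 2184 ± 2100 (SD, n = 3 each). The fitted log2 fold change of turning over green was -6.57 ± 1.19 (SE), given without a test because Gb_41630 was named for its green level. The log2 fold change of yellow over turning was -3.20 ± 1.62 (SE), which did not pass (edgeR adjusted p = 0.145), and it ran from -4.34 to -2.60 over the alternatives (adjusted p from 0.0141 to 0.527). It passed with the replicate block (-3.35, edgeR adjusted p = 0.0459), with DESeq2 (-3.21, adjusted p = 0.0141), without green library 3 (-3.21, edgeR adjusted p = 0.027) and without all libraries numbered 3 (-4.34, edgeR adjusted p = 0.023). The rule required the yellow libraries of this contrast to be low, so these p-values are tied in part to the choice and nothing is read from them.

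Among the 5 members already below 27 in every turning library, Gb_15961 had the highest green mean. It had 678, 451 and 231 normalized counts in the green libraries, 14.01, 22.1 and 8.47 in the turning libraries, and 1.35, 1.47 and 0 in the yellow libraries. All turning values lay far below all green ones, and only 2 reads in all were counted in yellow leaves. Gb_15961 was named for its low turning and high green values, so its fitted log2 fold changes are a description without a test. They were -4.92 ± 0.54 for turning over green and -3.82 ± 0.82 for yellow over turning (SE). The 5 members of this early class had green means from 165 to 454, turning means from 8.44 to 14.9 and yellow means from 0 to 14.03. With the libraries numbered 3 left out of the choice there were 13 such members among 316.

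At the other end were the 4 members still at or above the upper limit in every turning library. Their means ran from 245 to 785 at the green, from 206 to 263 at the turning and from 1.41 to 16.5 at the yellow stage. For 2 of these 4 turning leaves were nonetheless called lower than green leaves, with log2 fold changes of -1.63 and -1.31 and 32.2% and 40.2% of the green level retained. Choosing without the libraries numbered 1 or 3 gave 8 such members among 183 and 14 among 316. No member was called higher in turning than in green leaves, and the members with the largest fitted value in that direction were Gb_33231 and Gb_18999, the other two of this class. Both were named for their turning-over-green value, so their fold changes are a description without a test.

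Gb_33231 had 250, 294 and 190 normalized counts in the green libraries, 309, 243 and 165 in the turning libraries, and 18.9, 10.3 and 12.3 in the yellow libraries. Turning and green values overlapped, and all yellow values lay far below both. The fitted log2 fold change was -0.03 ± 0.29 for turning over green and -4.12 ± 0.36 for yellow over turning (SE).

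Gb_18999 had 251, 404 and 236 normalized counts in the green libraries, 171, 418 and 201 in the turning libraries, and 24.3, 19.1 and 6.14 in the yellow libraries. In green and in turning leaves library 2 was the highest, and the values of these stages overlapped. The fitted log2 fold change was -0.17 ± 0.46 for turning over green and -4.00 ± 0.55 for yellow over turning (SE). The missing call in the first interval does not show that either model stayed level.

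**Figure D5:**
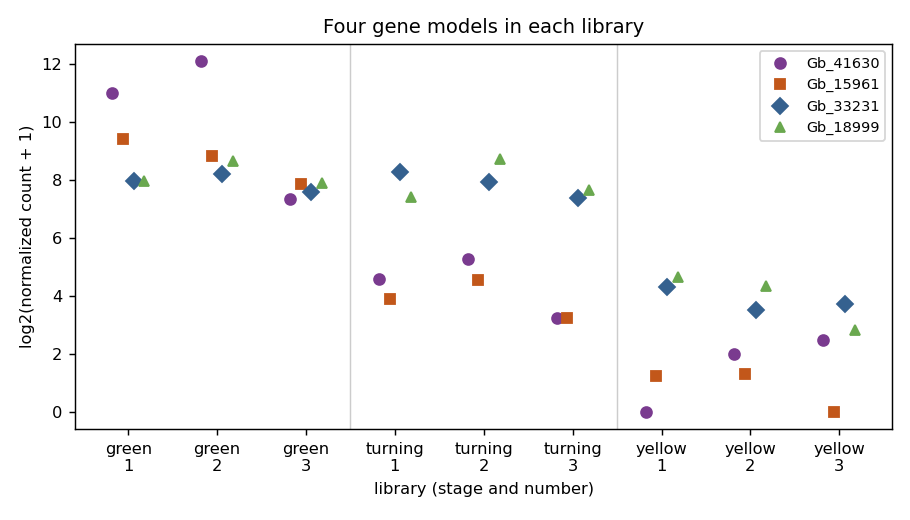
Normalized counts (log2 of the normalized count plus 1) of Gb_41630, Gb_15961, Gb_33231 and Gb_18999 in each library, 1 point per library. Gb_41630 and Gb_15961 lie below 40 normalized counts in every turning library, while Gb_33231 and Gb_18999 lie between 165 and 418 there.

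The edges of the set were crowded. The lowest single green value of a member was 135.5 and the nearest model outside, with all yellow values below 27, had 134.8. The highest single yellow value of a member was 26.9, and the nearest model outside, on in green leaves, had 27.6. Within a factor of 1.5 of the green limit lay 92 members above it and 244 models below it. Within the same factor of the yellow limit lay 73 members below it and 122 models above it. Membership also depended on the scaling: 153 models met the rule when library sizes were scaled by TMM, 225 when upper-quartile factors were used and 394 when only library totals were used. Each of these sets held all 143 members.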

How the data were processed

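The authors deposited 1 table of raw read counts per gene model, with 1 column per library and no pooled column. Per the submitters' processing notes, the tools were HISAT2 2.0.4, HTSeq 0.6.1 and CASAVA 1.8. Not given in the sources used here are the role of each tool, the genome build, the annotation and the strand setting, so the counts of models that overlap or share reads with a copy are uncertain. The number of columns of other samples was 0.

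The upper limit of the member rule was 135 normalized counts and the lower limit 27. Normalized counts used DESeq2 median-of-ratios size factors over 22634 models with counts in all 9 libraries. Tests used edgeR 4.0.16 in R 4.3.3 on the counts: filterByExpr by stage (minimum count 10, minimum total 15), TMM, and one quasi-likelihood model over all 9 libraries with a term for stage (6 residual degrees of freedom). Tests were two-sided, adjusted over all 23042 models, with a threshold of 0.05. DESeq2 1.42.0 and limma 3.58.1 were alternatives, as were other scalings, filters and limits and each library left out. The code was tested on simulated data.

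Members, lists and the rule for named models were chosen with earlier results of these data known. Named were the member with the highest green mean, that with the highest green mean among members below 27 in every turning library, and the 2 with the largest turning over green value. Same-numbered libraries deviated together from the stage means (r from 0.24 to 0.66 across genes over 9 pairs, against -0.52 to 0.03 over 18 pairs with different numbers). This pairing comes from the data and not from the labels. A fit with the replicate number as a block is quoted beside a result only if it alters a call or moves a count by over 1.5 times, or beside the main interval counts.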

Additional observations from a re-analysis of the deposited data

How the results depend on the processing

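The median share of the fall reached at the turning stage stayed between 0.39 and 0.44 under all alternatives run, 0.41 with the replicate block included. Members called lower in turning than in green leaves numbered 111 to 131 under other scalings, tests and filters, and 79 to 124 with libraries left out. Members called lower in yellow than in turning leaves numbered 119 to 137, and 125 to 133 with libraries left out. Both intervals were called for 101 to 129 members, and for 71 to 110 with libraries left out (alternatives for this count, and leaving out all libraries numbered 3, were chosen after seeing the data). Shares of all tested models are given above for the main fit and the block only, so these ranges have no background beside them. The block moved the single-interval counts as given above and, of the tests printed for named models, only that of Gb_41630.

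Calls against the midpoint were unstable. Above it were 18 members with library totals, 19 with DESeq2, 11 with limma-voom, 20 with the replicate block, and 0 to 7 with libraries left out. Below it were 1 with library totals, 3 with DESeq2, 1 with limma-voom, 1 with the filter of 1 CPM in at least 3 libraries and 4 with the block. The cause was not tested. With the block, 4.97% of all tested models were above and 4.77% below. Shares of all tested models are not given for the other fits of this paragraph, so those counts have no background beside them.

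The number of members was 225 with upper-quartile factors, 394 with library totals, 10 with limits stricter by a factor of 2, 637 with limits looser by a factor of 1.5, and 183 to 316 with libraries of 1 number left out. Members at or above the upper limit in every turning library then numbered 14 with library totals, 0 with stricter and 70 with looser limits, and 6 to 14 with libraries left out. Members below the lower limit there numbered 0 with stricter and 49 with looser limits, and 6 to 13 with libraries left out. Library totals moved the median log2 fold change of all models by -0.21 (turning over green) and -0.50 (yellow over turning). Relative to that median the members stood at -1.61 and -2.43 with library totals and at -1.62 and -2.43 with TMM.

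The log2 fold change of turning over green ran from -0.24 to 0.19 for Gb_33231 and from -0.66 to 0.12 for Gb_18999 with libraries left out. It was positive for Gb_33231 without green library 2 (0.13), without turning library 3 (0.19) and without all libraries numbered 3 (0.037), and for Gb_18999 without green library 2 (0.12) or turning library 1 (0.087). None of these values was called. Few reads limit what yellow libraries can show of the members.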
